A study of Populus tremula x Populus alba with 24 samples.

Results

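The secondary wall cellulose synthases of poplar were followed in roots treated with LCO, the lipo-chitooligosaccharide signals by which rhizobia, and fungi of several kinds, are recognised by a plant root. They are 5 of the 42950 genes in the gene table: CesA4 (Potri.002G257900), CesA7-A (Potri.006G181900), CesA7-B (Potri.018G103900), CesA8-A (Potri.011G069600) and CesA8-B (Potri.004G059600). The genes were named by their known function in wall building, a rule that uses no measured value. They were chosen with earlier results of these data known. Each was read from its row across all 22 libraries. All 5 passed the filter of a mean of at least 1 TPM, which 25636 genes passed.

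Cellulose synthases are plasma membrane enzymes that join glucose from UDP-glucose into the glucan chains of cellulose. They work in rosette-shaped complexes, and different isoforms build the complexes of the primary wall, which is laid down while cells expand, and of the secondary wall, which thickens xylem vessels and fibres after expansion. CesA4, CesA7 and CesA8 are the isoform classes of the secondary wall complex; in Arabidopsis, loss of any one of these classes gives collapsed xylem vessels. Poplar carries CesA7 and CesA8 as pairs of closely related copies, and in stems all classes are abundant in developing wood.

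All roots came from the hybrid Populus tremula x Populus alba, clone 717-1B4, a single genotype, grown for 10 days on a medium poor in phosphate (7 μM) and in nitrogen (0.5 mM). Control roots were collected at time 0, with a control solution of 0.005% ethanol named in the labels. Roots given 10 nM purified LCO of Rhizobium sp. IRBG74 for 1 h, starting 3 h after dawn, were collected at 7 times, first after 15 min and 30 min, then after 1 h, 2 h and 4 h, and last after 8 h and 24 h. The labels count these times from the treatment and do not say outright if that means its beginning or the moment the solution was poured off. The 30 min and 2 h groups have 2 libraries and all other groups, control included, have 3. The roots of 4 plants went into every library, as biological replicates in the wording of the labels. The labels do not state plainly whether control roots were immersed, and control roots were sampled at time 0 only, so an effect of LCO cannot be told apart from one of elapsed time or, for all times but 24 h, of the hour of day.

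Values are in TPM, the usual length-corrected relative abundance of a transcript, recovered from the deposited log values. TPM keeps no read depth, so the reads behind these low levels are unknown and no counting interval can be given. The tables name no genes, so the root label was not checked against marker genes, and no other wall genes were listed by name. Genes listed at 0 numbered from 9029 to 13313 per library. The mean correlation across genes with the other libraries of a group was lowest for 15 min replicate 2 (0.895) and for both 30 min libraries (0.909). 15 min replicate 2 and 30 min replicate 3, which listed 12139 and 13313 genes at 0, were left out together as a check. Roots are a mixture of cell types, and fewer xylem cells cannot be told apart from less of a transcript per cell.

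The 5 genes were weakly expressed in these roots, and CesA4 stood highest. CesA4 averaged 7.15 TPM over the 22 libraries, followed by CesA7-A at 3.86, CesA7-B at 3.85, CesA8-B at 3.30 and CesA8-A at 1.80 TPM. These means lay at percentiles 66.7, 56.5, 56.4, 54.2 and 46.3 of all genes in the table. The lowest single value was 0.738 TPM for CesA8-A in 1 h replicate 1, and the highest was 15.2 TPM for CesA4 in 24 h replicate 2. No member was listed at 0 in any library.

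Against control, CesA4 rose at 8 h and at 24 h, about 2-fold, and no other member was called higher or lower than control at any of the 7 times. Calls were made in limma, with p-values adjusted by the Benjamini-Hochberg method over all 25636 genes, at an adjusted p under 0.05. Fold changes are on the scale of log2(TPM + 1), which makes the change of such weakly expressed genes smaller than the ratio of their TPM. The members called numbered 0 of 5 at 15 min, where 8.06% of all tested genes were called, 0 of 5 at 30 min (1.78% of all genes), 0 of 5 at 1 h (2.88%), 0 of 5 at 2 h (4.19%) and 0 of 5 at 4 h (9.56%). At an unadjusted p under 0.05 in the same limma fit, 3 members differed at 30 min (20.8% of all genes) and 0 at the other 4 of these times, where 24.7%, 15.5%, 16.5% and 22.2% of all genes did. The number was 1 of 5 at 8 h, where 36.3% of all genes were called, and 1 of 5 at 24 h, where 35.8% were. A share of 1 in 5 lies below these backgrounds, so the late calls were no more frequent in this family than in the table as a whole. The moderated F test over all 7 comparisons called 0 of 5 members, against 58.9% of all genes; CesA4 came nearest (adjusted p = 0.0658), and the others had adjusted p-values from 0.198 to 0.398. Without adjustment, limma's F test gave CesA4 a p-value of 0.0415 and no other member one under 0.05.

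**Figure D1:**
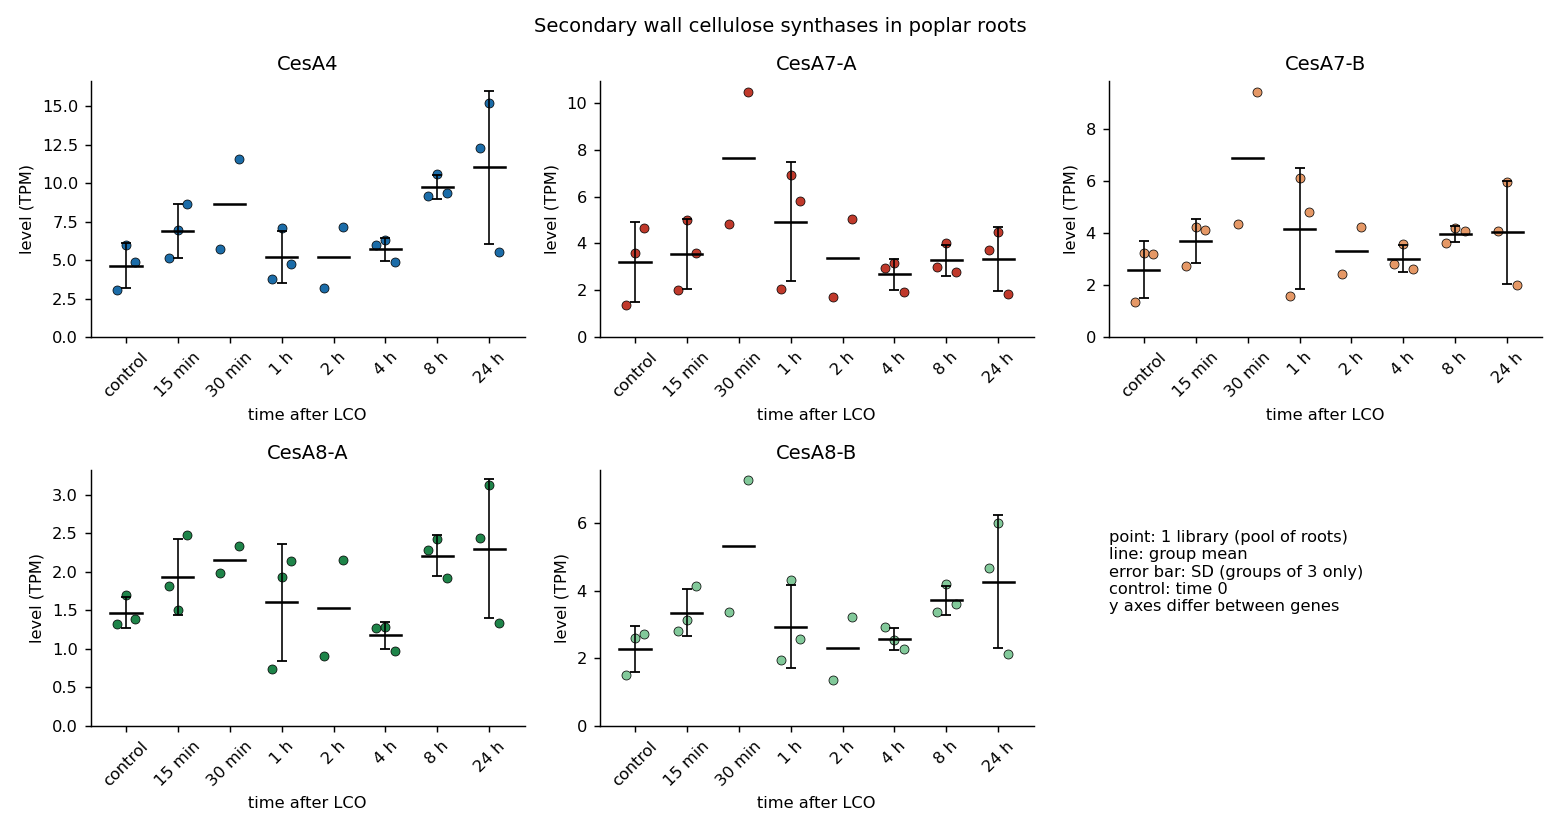
Level in TPM (y axis, a separate scale for each gene) of the 5 secondary wall cellulose synthases by group (x axis: control at time 0, then time after LCO). Points are libraries, lines are group means and error bars are SD where a group has 3 libraries; the 3 CesA4 points at 8 h, from 9.20 to 10.6 TPM, lie above all 3 control points, while at 24 h 1 library at 5.54 TPM lies among them.

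CesA4 is the class represented by a single gene in this set. In the control its libraries had 3.09, 5.96 and 4.90 TPM, and they had 5.11, 6.95 and 8.62 TPM at 15 min, and 5.75 and 11.6 TPM at 30 min. Later its libraries had 3.74, 7.06 and 4.78 TPM (1 h), 3.21 and 7.15 TPM (2 h), and 5.97, 6.30 and 4.86 TPM (4 h). At 8 h it had 9.20, 10.6 and 9.36 TPM, and at 24 h 12.3, 15.2 and 5.54 TPM. All 8 h libraries lay above all control libraries, whereas 24 h replicate 3 lay within the control range and the other 24 h libraries lay above it. CesA4 averaged 9.73 ± 0.779 TPM at 8 h and 4.65 ± 1.45 TPM in the control (SD, n = 3 each), a log2 fold change of 0.96 (SE 0.33, limma adjusted p = 0.0329). At 24 h the mean was 11.03 ± 4.97 TPM, against 4.65 ± 1.45 TPM in the control (SD, n = 3 each), a log2 fold change of 1.02 (SE 0.33, limma adjusted p = 0.0240). The 95% intervals of these fold changes run from 1.19 to 3.16 at 8 h and from 1.25 to 3.31 at 24 h. At the earlier times the log2 fold changes lay between 0.086 at 2 h and 0.74 at 30 min, with adjusted p-values from 0.266 to 0.942.

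Both late calls depended on single libraries. Without control replicate 1, the lowest control for CesA4, the limma adjusted p was 0.144 at 8 h and 0.113 at 24 h, with log2 fold changes of 0.74 and 0.81. At 8 h the call was also lost without control replicate 3 (0.0546), without 8 h replicates 1, 2 or 3 (0.0619, 0.0921 and 0.0671), and with no filter on low values (0.0548). At 24 h it was also lost without replicate 1 (0.0876) or replicate 2 (0.124), and the log2 fold change was 1.41 without replicate 3 (adjusted p = 0.00364). The 8 h and 24 h libraries listed 9029 to 10070 genes at 0, and the control libraries 10314 to 10663. With this number as a covariate in limma both calls were still made (adjusted p = 0.0309 and 0.0274). Because the 2 ranges do not overlap, that fit cannot separate the number of genes at 0 from the time.

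CesA7-A and CesA7-B are the copies of the CesA7 class. CesA7-A had 1.35, 3.59 and 4.67 TPM in the control, 2.01, 5.01 and 3.60 TPM at 15 min, and 4.83 and 10.5 TPM at 30 min. Its later libraries had 2.06, 6.90 and 5.80 TPM (1 h), 1.72 and 5.05 TPM (2 h), 2.95, 3.14 and 1.93 TPM (4 h), 3.01, 4.03 and 2.78 TPM (8 h), and 3.73, 4.47 and 1.82 TPM (24 h). Apart from 30 min, where both libraries lay above all controls, every group overlapped the control, whose own libraries spanned 3.47-fold. At 24 h the mean was 3.34 ± 1.37 TPM, against 3.20 ± 1.70 TPM in the control (SD, n = 3 each), a log2 fold change of 0.085 (SE 0.42, limma adjusted p = 0.894); the 95% interval of the fold change, 0.576 to 1.95, includes both a loss and a gain of some size. The largest difference was at 30 min, with a log2 fold change of 1.05 (SE 0.47) that was not called (adjusted p = 0.213).

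CesA7-B followed its copy closely in most libraries. It had 1.34, 3.24 and 3.21 TPM in the control, 2.71, 4.22 and 4.11 TPM at 15 min, and 4.35 and 9.43 TPM at 30 min. From 1 h on the values were 1.59, 6.11 and 4.79 TPM (1 h), 2.41 and 4.23 TPM (2 h), 2.81, 3.59 and 2.60 TPM (4 h), 3.63, 4.20 and 4.06 TPM (8 h), and 4.09, 5.96 and 2.01 TPM (24 h). The 30 min and 8 h libraries lay above all controls, and the libraries of every other time overlapped them. At 8 h CesA7-B averaged 3.96 ± 0.295 TPM and in the control 2.60 ± 1.08 TPM (SD, n = 3 each), a log2 fold change of 0.52 (SE 0.37, limma adjusted p = 0.288). Its log2 fold change at 30 min, 1.11 (SE 0.41), had an adjusted p of 0.148.

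CesA8-A was the weakest member. It had 1.33, 1.70 and 1.39 TPM in the control, 1.82, 1.51 and 2.48 TPM at 15 min, and 1.99 and 2.33 TPM at 30 min. In the later libraries it had 0.738, 1.94 and 2.14 TPM (1 h), 0.911 and 2.16 TPM (2 h), 1.27, 1.29 and 0.968 TPM (4 h), 2.29, 2.43 and 1.92 TPM (8 h), and 2.44, 3.13 and 1.34 TPM (24 h). All 4 h libraries lay below the controls, as in 14.9% of all genes, and all 30 min and 8 h libraries lay above them. The mean was 2.21 ± 0.262 TPM at 8 h and 1.47 ± 0.201 TPM in the control (SD, n = 3 each), a log2 fold change of 0.38 (SE 0.25, limma adjusted p = 0.248), and at 4 h the log2 fold change was -0.18 (adjusted p = 0.746).

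CesA8-B stood above CesA8-A in every library. It had 1.50, 2.61 and 2.73 TPM in the control, 2.81, 3.11 and 4.12 TPM at 15 min, and 3.37 and 7.28 TPM at 30 min. The later values were 1.94, 4.31 and 2.55 TPM (1 h), 1.36 and 3.21 TPM (2 h), 2.91, 2.54 and 2.26 TPM (4 h), 3.36, 4.19 and 3.59 TPM (8 h), and 4.68, 5.99 and 2.12 TPM (24 h). The 15 min, 30 min and 8 h libraries all lay above the controls, while 24 h replicate 3 did not. At 24 h CesA8-B averaged 4.26 ± 1.97 TPM, against 2.28 ± 0.676 TPM in the control (SD, n = 3 each), a log2 fold change of 0.63 (SE 0.31) that was not called (limma adjusted p = 0.124). Without 24 h replicate 3 the log2 fold change was 0.96 and the call was made (adjusted p = 0.0254).

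**Figure D2:**
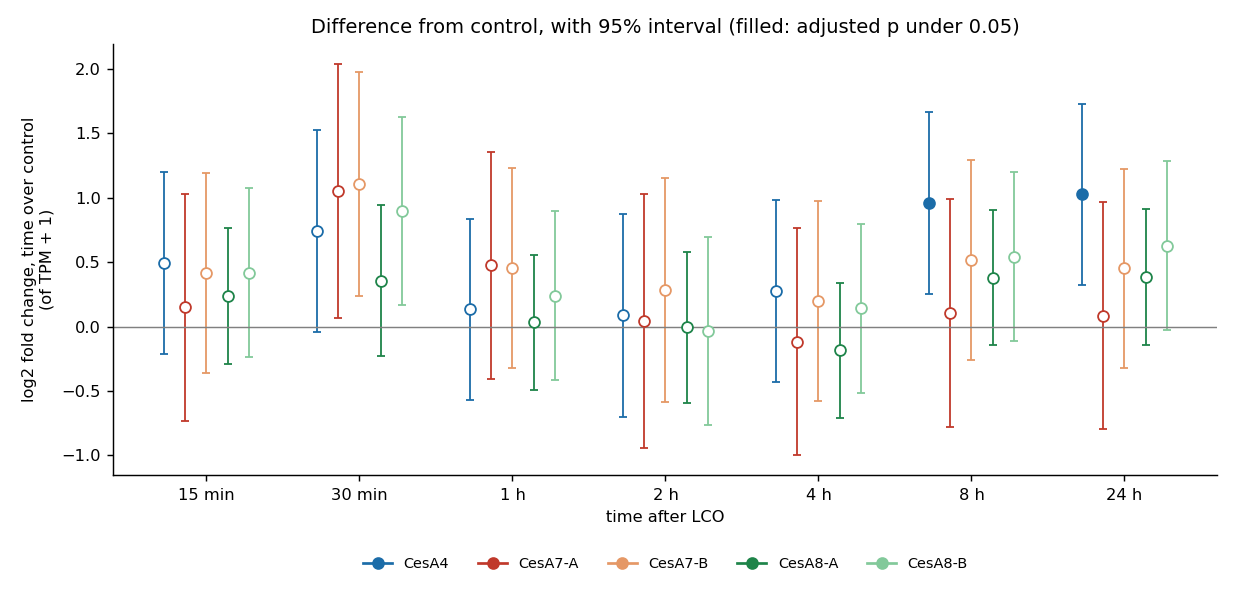
Log2 fold change of TPM + 1 at each time over control (y axis) for the 5 genes at the 7 times after LCO (x axis), with the 95% interval from the limma fit. Filled points passed an adjusted p under 0.05: CesA4 at 8 h (0.96) and at 24 h (1.02); all open points missed it.

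Read as a group, the members sat above control more often than below it. Over the 5 members the median log2 fold change against control was largest at 30 min (0.90), at 8 h (0.52), at 24 h (0.45) and at 15 min (0.42). It was 0.24 at 1 h, 0.14 at 4 h and 0.043 at 2 h, while the median over all tested genes stayed between -0.020 and 0.051. All 5 values were positive at every time other than 2 h and 4 h, when 3 of 5 were. These 7 comparisons use the same control libraries, of which replicate 1 was the lowest for every member, so the signs at different times are not separate evidence. All libraries lay above all control libraries for 4 of 5 members at 8 h, where this held for 31.3% of all genes, for 4 of 5 at 30 min, with 2 libraries (16% of all genes), for 1 of 5 at 15 min (11.3%) and for 0 of 5 at 24 h (30.2%). The members tended to move together between libraries of a group, so they are not separate trials to set against these shares. At 30 min the levels of 4 members, all but CesA8-A, were at least 2.01-fold higher in replicate 3, the library with the most genes at 0, than in replicate 1. Without 30 min replicate 1, which leaves that library alone and assumes it varies like the other groups, CesA7-B and CesA8-B were called at 30 min (limma adjusted p = 0.0374 and 0.0317).

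The order of the group means differed between members, but no neighbours in any order differed in the direct comparison. CesA4 and CesA8-A had their highest mean at 24 h and their next at 8 h. CesA7-A, CesA7-B and CesA8-B had theirs at 30 min (7.65, 6.89 and 5.33 TPM). The lowest mean was that of the control for CesA4, CesA7-B and CesA8-B, and that of 4 h for CesA7-A and CesA8-A. Over the 7 neighbouring pairs of each gene, the smallest adjusted p in limma was 0.666 for CesA4, 0.647 for CesA7-A, 0.718 for CesA7-B, 0.626 for CesA8-A and 0.552 for CesA8-B. Of the 28 pairs of groups, the calls on members were those of CesA4 at 8 h and 24 h over control and 1 more, CesA4 at 24 h over 1 h (log2 fold change 0.89, SE 0.33, adjusted p = 0.0380), in a comparison that called 44.5% of all genes. The other 20 pairs of times called 0 members and from 0.0468% to 43.4% of all genes.

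Pools of the same group differed widely at several times and little at others, and the members tended to move together between pools. At 8 h the highest library exceeded the lowest by 1.15-fold for CesA4 and at most 1.45-fold for any member, and at 4 h by 1.29-fold to 1.63-fold, whereas at 1 h CesA7-B spanned 3.83-fold. The same library was the lowest of its group for all 5 members in 6 of the 8 groups: control replicate 1, 30 min replicate 1, 1 h replicate 1, 2 h replicate 1, 4 h replicate 3 and 24 h replicate 3. A single library was the highest for all 5 members in 4 of the 8 groups. The 30 min and 2 h groups enter both counts, because with 2 libraries the lowest settles the highest. Such counts were not made for other genes. The summed level of the 5 genes was 21.5, 25.5 and 21.7 TPM at 8 h. It was 12.8 TPM in 24 h replicate 3, against 27.2 and 34.8 TPM in the other 24 h libraries, and 10.1 TPM in 1 h replicate 1, against 26.3 and 20.1 TPM in the other 1 h libraries. In the control it was 8.61 TPM in replicate 1, against 17.1 and 16.9 TPM in the others. Across all genes, the mean correlation with the other libraries of the group was 0.971 for 24 h replicate 3, the lowest of its group, against 0.974 and 0.975 for the others, and 0.965 for control replicate 1, against 0.968 and 0.961. The SD within groups on the log2 scale was 0.44 for CesA4, 0.56 for CesA7-A, 0.49 for CesA7-B, 0.30 for CesA8-A and 0.40 for CesA8-B, and the median over all tested genes was 0.28. CesA7-A lay at percentile 89.7 of all tested genes in this spread and CesA8-A at 55.2. The groups accounted for between 33.8% (CesA7-B) and 54.1% (CesA4) of the variance of the members, against a median of 65.0% over all tested genes. These shares are not corrected for fitting 8 group means to 22 libraries, which alone gives a share well above 0. For CesA7-A and CesA7-B the unadjusted p of limma's F test was 0.348 and 0.362.

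**Figure D3:**
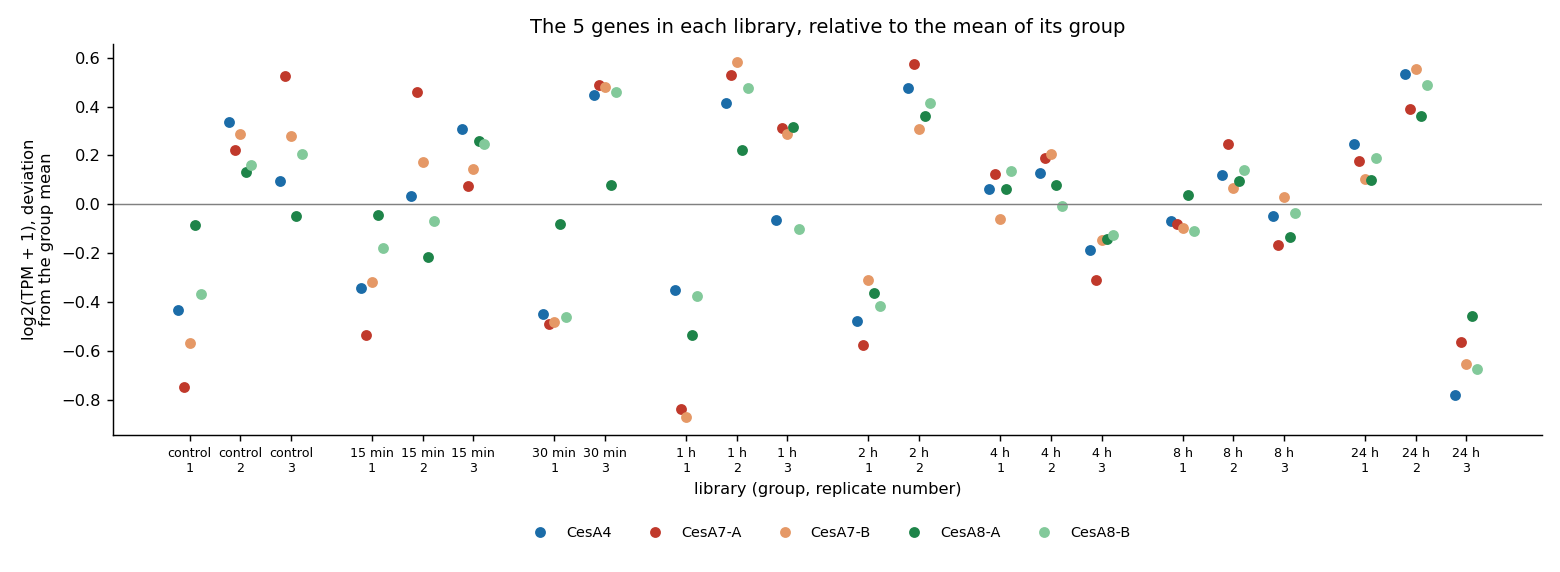
Deviation of log2(TPM + 1) from the mean of its group (y axis) for the 5 genes (colours) in each of the 22 libraries (x axis, by group and replicate number). The 5 points of a library tend to lie on the same side of 0, all of them below it in 24 h replicate 3, 1 h replicate 1 and control replicate 1.

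Over the 22 libraries, every pair of members was positively correlated. Pearson's r on the log2 scale ran from 0.547 for CesA4 with CesA7-A to 0.916 for CesA4 with CesA8-B, and Spearman's rho from 0.488 to 0.910. All 10 pairs passed a permutation test (100000 resamples, two-sided, adjusted over the 10 pairs), with adjusted p-values up to 0.00805 for r and up to 0.0223 for rho. The test shuffled libraries across groups, so differences between groups that members share count toward these p-values. Pairs of other genes were not tested. Without the 2 libraries farthest from the median of the first gene, r ran from 0.584 to 0.897. Taken on the deviations from the group means, which remove the differences between times, r was 0.866 for CesA4 with CesA7-A and 0.974 for CesA4 with CesA8-B, and ranged from 0.724 to 0.974 over the 10 pairs. The libraries share normalization, and how reads that fit both copies of a pair were counted is not stated, so the split between copies is uncertain: CesA7-A with CesA7-B had r = 0.910 and CesA8-A with CesA8-B had r = 0.814.

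Because pools differed in the level of all 5 genes at once, the balance between the genes within a library was measured as well. CesA4 made up 42.8%, 41.7% and 43.1% of the summed TPM of the 5 genes at 8 h and 45.2%, 43.8% and 43.1% at 24 h, against 35.9%, 34.9% and 28.98% in the control. In all 16 libraries of the control and the earlier times, the CesA4 share lay between 23.8% and 38.5%, so the 6 libraries of 8 h and 24 h stood above every other library. Such shares were not computed for other sets of genes, and 36.3% of all tested genes were called against control at 8 h and 35.8% at 24 h. 24 h replicate 3, whose summed level was far below those of the other 24 h libraries, was close to them in the CesA4 share. The CesA7 copies together made up 28.7% to 32.3% in the 8 h and 24 h libraries and 31.3% to 52.8% in the others. The CesA8 copies stayed between 22.2% and 32.9% in all libraries.

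**Figure D4:**
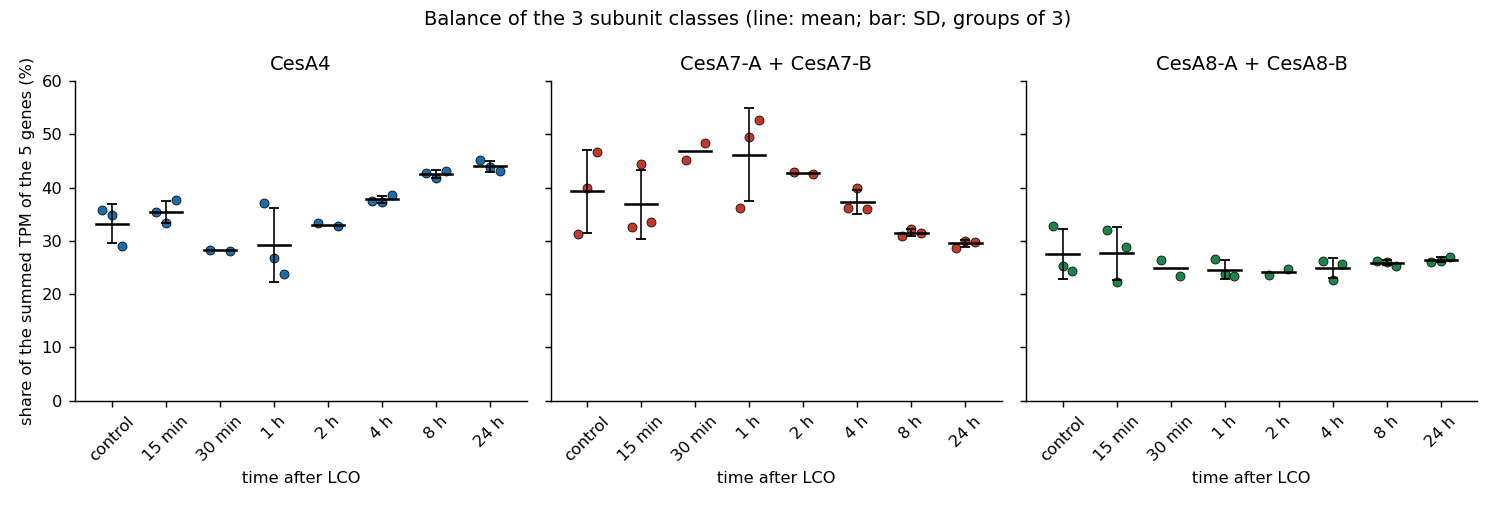
Share of the summed TPM of the 5 genes, in percent (y axis), held by CesA4, by both CesA7 copies and by both CesA8 copies, by group (x axis: control at time 0, then time after LCO). Points are libraries, lines are means and bars are SD where a group has 3 libraries; the 8 h and 24 h points of CesA4, from 41.7% to 45.2%, lie above all others, which end at 38.5%.

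Ratios of members within a library were also tested, over all 8 groups at once and not for the late times by themselves. For each of the 10 pairs, the log2 ratio of TPM + 1 was compared over the 8 groups by a permutation test of the F statistic over the 22 libraries (100000 resamples), with p-values adjusted over the 10 pairs. Ratios beyond those of the copy pairs were added after the levels had been seen, so their p-values do not test the late shares on fresh data. CesA4 over CesA7-A differed between groups (adjusted p = 0.00275), as did CesA4 over CesA7-B (0.00457) and CesA4 over CesA8-B (0.00180). CesA4 over CesA8-A did not pass (0.192), nor did any of the 6 ratios without CesA4 (0.174 to 0.382). As a ratio of TPM, CesA4 over CesA8-A averaged 4.87 ± 0.153 at 4 h, 4.42 ± 0.432 at 8 h and 4.68 ± 0.487 at 24 h. In the control it averaged 3.12 ± 0.687 (SD, n = 3 each). On the tested scale, the log2 ratio of TPM + 1, the means were 1.62 at 4 h, 1.74 at 8 h, 1.80 at 24 h and 1.16 in the control. The order of 4 h, 8 h and 24 h thus differs between the scales. At levels this low the added 1 TPM makes the tested ratio depend on the level as well. The test says that groups differ, not which. Ratios of other genes were not tested, so how common such differences are in these data is unknown. As a ratio of TPM, CesA4 over CesA7-A was 3.06, 2.63 and 3.37 at 8 h and 3.30, 3.41 and 3.04 at 24 h, against 2.29, 1.66 and 1.05 in the control, and no other library exceeded 2.54. It was 1.19 and 1.11 at 30 min, and 1.82, 1.02 and 0.825 at 1 h. CesA4 over CesA8-B was 2.74, 2.54 and 2.61 at 8 h and 2.63, 2.54 and 2.61 at 24 h, against 2.06, 2.28 and 1.79 in the control. Among the other libraries this ratio came close to the late values, at 2.48 in 4 h replicate 2 and 2.35 in 2 h replicate 1. CesA4 over CesA7-B was 2.53, 2.53 and 2.30 at 8 h and 3.01, 2.56 and 2.75 at 24 h, against 2.30, 1.84 and 1.53 in the control, so that the 8 h and control libraries met at 2.30, and 1 h replicate 1 reached 2.35. These 3 ratios passed the test in each of 24 alternatives, which left out each library in turn, left out 15 min replicate 2 with 30 min replicate 3, or used a pseudocount of 0.1 TPM, with adjusted p-values up to 0.0255.

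No difference between groups was detected in the ratio of the copies of a class. CesA7-A over CesA7-B averaged 0.824 ± 0.139 at 8 h and 0.856 ± 0.0917 at 24 h, against 1.19 ± 0.237 in the control (ratio of TPM, SD, n = 3 each), and the permutation test over the 8 groups gave p = 0.231 after adjustment over the 2 copy pairs. CesA7-A lay below CesA7-B in all 6 libraries of 8 h and 24 h and above it in all 3 control libraries. The gap was narrow, with a ratio of 1.004 in control replicate 1 and 0.961 in 8 h replicate 2. CesA8-A over CesA8-B averaged 0.598 ± 0.0751 at 8 h and 0.559 ± 0.0634 at 24 h, against 0.681 ± 0.189 in the control (SD, n = 3 each; permutation test, adjusted p = 0.382). Missing the threshold does not show that the copies act alike.

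In the transcript table each member is represented by 1 transcript model, number 2 for CesA8-B and number 1 for the others, so no change of transcript within a gene can be seen. The gene and transcript values differed by at most 0.411 TPM. CesA4 was again the only member called at 8 h and 24 h in limma on 29885 transcripts, with log2 fold changes of 0.99 (adjusted p = 0.0422) and 1.06 (adjusted p = 0.0300). The transcript comparisons called 29.6% and 30.3% of all transcripts tested at these times.

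The most similar courses over the 22 libraries were looked for among the 16900 other genes that averaged 5 TPM or more. Likeness was the Pearson r with the mean of the standardized log2 profiles of the 5 members; its median over these genes was near 0, 13 of them (0.0769%) reached 0.8, and 1 reached 0.9. The tables do not pair identifiers with names, so the genes go by identifier. Potri.006G087100 was the most similar (r = 0.937) and was also the nearest gene to CesA8-B (r = 0.955). It had 6.16, 8.11 and 5.99 TPM at 8 h and 8.27, 8.96 and 3.30 TPM at 24 h, against 2.11, 3.47 and 4.34 TPM in the control. In limma this gene was not called at 8 h (adjusted p = 0.0753) or at 24 h (0.0996). Its largest log2 fold change against control was 0.95 at 30 min (limma adjusted p = 0.207). Potri.001G068100 came next (r = 0.894) and was the nearest gene to CesA4 (r = 0.960). It had 12.5, 15.6 and 10.4 TPM at 8 h and 19.1, 21.6 and 8.87 TPM at 24 h, against 4.77, 8.09 and 7.04 TPM in the control. Limma called Potri.001G068100 at 8 h (adjusted p = 0.0368) and at 24 h (0.00899), where 36.3% and 35.8% of all genes were called. Since both genes were picked for their likeness over these same libraries, that they are low in the same libraries as the members follows from the choice. Their differences from control are not separate evidence for the same reason.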

How the data were processed

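Root RNA was sequenced from 24 samples in the labels; the tables hold 22 of them, and 30 min replicate 2 and 2 h replicate 3 were not analysed here. The authors deposited gene and transcript tables that hold a natural log of TPM + 1 after quantile normalization, per the names of the tables. That the log is natural was read from the sums: back-transformed libraries come to 936253 to 936552 TPM. The submitters' processing notes list kallisto and sleuth, without saying what each did or in which version. No build of the genome was stated. Quantile normalization removes any change in the total or spread of all genes.

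Values were back-transformed to TPM, in place of the TPM assumed beforehand, and analysed as log2(TPM + 1). Genes averaging 1 TPM or more were fitted in limma 3.58.1 (R 4.3.3), with 1 mean per group, all 22 libraries, empirical Bayes moderation with a trend and Benjamini-Hochberg adjustment, two-sided; each of the 28 pairs of groups was adjusted by itself. Python 3.11.15 was used for permutation tests and matplotlib 3.10.9 for plots. The fit and the permutation test were tested on simulated data.

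Alternatives were a pseudocount of 0.1 TPM, other filters, library weights, no trend, a replicate block, fits of only both groups and leaving out libraries. The genes, lists and tests were chosen with earlier results of these data known. Planned lists of other wall genes and of cell type markers needed gene descriptions and were not built. The naming rule took all members and the genes most like them, of which the top 2 are named because the files give identifiers only.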

Additional observations from a re-analysis of the deposited data

Results flagged for a closer look

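CesA4 at 24 h lay above CesA4 at 1 h by 0.89 on the log2 scale (limma adjusted p = 0.0380, n = 3 each), so its difference from the same control differed between these times; the 12.3, 15.2 and 5.54 TPM at 24 h overlap the 3.74, 7.06 and 4.78 TPM at 1 h. No group has over 3 libraries, so single libraries were not tested for standing apart from their group.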

How the results depend on the processing

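CesA4 was called in limma in 25 of 31 alternatives at 8 h (adjusted p from 0.00823 to 0.144) and in 28 of 31 at 24 h (0.00364 to 0.124), higher than control in each. Many of these only dropped libraries of other times, which kept the log2 fold changes at 0.96 and 1.02. The counts therefore say little about how stable the calls are. Among leave-outs from the compared groups, the 8 h call was kept only on dropping control replicate 2 (limma adjusted p = 0.0338). The 24 h call was kept on dropping control replicates 2 or 3 (0.0257 and 0.0432) or 24 h replicate 3 (0.00364). The other leave-outs from these groups lost it. No alternative called CesA4 at an earlier time. Without 15 min replicate 2 and 30 min replicate 3 together, the adjusted p was 0.0260 at 8 h and 0.0188 at 24 h.

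Counts of members called moved as follows. With no filter on low values, 0 members were called at 8 h, and 0 transcripts at 8 h and 0 at 24 h. With library weights, 2 were called at 24 h, CesA8-B being added (adjusted p = 0.0331), and 1 in the F test. When libraries were left out in turn, the count ran from 0 to 2 at 30 min, from 0 to 1 at 8 h, from 0 to 2 at 24 h and from 0 to 1 in the F test; it was 2 at 30 min without replicate 1, 2 at 24 h without replicate 3, and 0 at 24 h without control replicate 1 or 24 h replicates 1 or 2. A group of 2 libraries that loses 1 is assumed to vary like the others. With a floor of 5 TPM, CesA4 alone is tested.

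Replicate numbers were not used to pair the libraries in the limma fits above. Of 70 pairs of libraries with the same number, 23 had deviations from their group means that correlated above 0.1. The range was -0.355 to 0.386 and the median 0.048. Pairs with different numbers were not compared, so this does not decide whether the numbers mark pairs. For all 5 members, replicate 1 was the lowest library in the control and at 30 min, 1 h and 2 h. At 4 h and 24 h replicate 3 was the lowest. With the replicate number as a block, 1 member was called in the F test (CesA4, adjusted p = 0.0214), and CesA4 had an adjusted p of 0.0154 at 8 h and 0.0108 at 24 h.

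Uncalled log2 fold changes near 0 changed sign. Without 15 min replicate 2 and 30 min replicate 3, CesA7-A at 15 min was -0.082. With the number of genes at 0 as a covariate, CesA4 was -0.0051 at 1 h and -0.046 at 2 h, and at 2 h CesA7-A was -0.29 and CesA8-A 0.032. With library weights CesA4 at 2 h was -0.034. Over the libraries left out in turn, CesA7-A ran from -0.23 to 0.42 at 15 min, from -0.49 to 0.15 at 4 h, from -0.27 to 0.37 at 8 h and from -0.29 to 0.37 at 24 h. At 1 h CesA4 ran from -0.084 to 0.31 and CesA8-A from -0.13 to 0.30. At 2 h CesA4 ran from -0.39 to 0.56, CesA7-A from -0.53 to 0.62, CesA7-B from -0.025 to 0.59, CesA8-A from -0.37 to 0.36 and CesA8-B from -0.45 to 0.38. At 4 h CesA7-B ran from -0.085 to 0.34 and CesA8-B from -0.043 to 0.24.

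The adjusted permutation p of CesA7-A over CesA8-B ran from 0.0397 to 0.300 over the libraries left out in turn, and was 0.0402 without 15 min replicate 2; that of CesA7-B over CesA8-B ran from 0.0360 to 0.519. The low ends were without 1 h replicate 1. Where a call or sign changed, the cause was not tested. The covariate, the joint leave-out, the libraries of other times and the ratios beyond both copy pairs were chosen after seeing the data.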
